A study of Mus musculus with 4 samples.

Results

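Interferon-stimulated genes are the genes that cells switch on when they sense interferon, and 44 of them, given as a list of symbols, are described here in mouse embryonic fibroblasts without and with PTIP. Of the 44, 42 had a probe set assigned to a single gene symbol, out of 18193 such genes on the array, and each gene was read on its brightest such probe set. Isg15, the ubiquitin-like modifier, shared its probe set with a second symbol, and no probe set was assigned to Ifi44, so neither is given a value. A gene was tested where its mean reached the 40th percentile of probe-set means, a signal of 47.7. This left 34 of the 44 members among 12509 genes tested.

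The study asked which genes depend on PTIP, the product of Paxip1, a BRCT-domain protein of the MLL3/MLL4 histone methyltransferase complexes. The PTIP -/- group holds 2 RNAs of immortalized fibroblasts homozygous for a loxP-flanked PTIP allele after a retrovirus had delivered Cre recombinase. The PTIP +/+ group holds 2 RNAs of fibroblasts with the same flanked alleles after the empty retroviral vector, so that retroviral infection, puromycin selection and the flanked alleles are common to both groups. The RNAs are numbered 1 and 2 within each genotype, and no source used here says whether a number stands for a culture, an infection or a day. The p-values cover no more than the spread among the 4 RNAs, which may be technical, and the number of arrays limits the precision of every value.

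Interferons bind receptors at the cell surface whose Jak and Tyk kinases activate STAT proteins. Type I interferon brings STAT proteins and IRF9 together in a complex that binds the interferon-stimulated response element, and interferon gamma makes STAT dimers that bind gamma-activated sites. The genes they switch on include sensors of foreign RNA and DNA, factors that amplify or restrain the signal, and effectors that block viruses at entry, translation, replication or release. Fibroblasts make beta interferon when they sense viral nucleic acid, and keep a low level of many of these genes without infection.

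Short stretches of promoter are shown, because the core in them is the sequence that the pathway's factors recognise, for the 7 members whose measured signals were at least 2-fold higher in PTIP -/- in the arrays numbered 2 and that hold the core of the response element (GAAA, any 2 bases, GAAA) on either strand within 250 bases before their start site. The sequences are from RefSeq on GRCm38.p6, run 5′ to 3′ along the gene's strand, and carry the core in capitals, which reads TTTC, any 2 bases, TTTC where it lies on the opposite strand. Overlapping cores are joined into 1 run of capitals. For Gbp2 the PTIP +/+ signal in number 2 lay below the level, so its difference there is bounded only at 1.06-fold.
Oas1a, chr5:120907526-120907570, minus strand, 45 to 1 bases before the start site: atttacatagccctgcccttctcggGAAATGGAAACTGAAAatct
Ifit1, chr19:34640760-34640838, plus strand, 129 to 51 bases before the start site: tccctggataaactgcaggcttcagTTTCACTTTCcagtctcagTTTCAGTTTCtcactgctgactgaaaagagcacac
Bst2, chr8:71537562-71537627, minus strand, 155 to 90 bases before the start site: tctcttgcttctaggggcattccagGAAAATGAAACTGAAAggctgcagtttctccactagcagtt
Igtp, chr11:58199497-58199555, plus strand, 59 to 1 bases before the start site: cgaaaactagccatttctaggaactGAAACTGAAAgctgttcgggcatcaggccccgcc
Gbp3, chr3:142559974-142560039, plus strand, 70 to 5 bases before the start site: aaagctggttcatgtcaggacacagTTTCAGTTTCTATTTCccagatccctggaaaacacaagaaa
Gbp2, chr3:142620579-142620638, plus strand, 84 to 25 bases before the start site: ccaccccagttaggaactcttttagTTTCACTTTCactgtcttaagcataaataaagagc
Cxcl10, chr5:92349068-92349127, minus strand, 238 to 179 bases before the start site: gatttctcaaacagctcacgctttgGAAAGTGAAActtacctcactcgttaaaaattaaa

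Among the 34 members with a promoter window, tested or not, 14 held the core (41.2%), against 936 of 27025 genes with a window (3.46%). It stood in 7 of the 10 members with a window that were at least 2-fold higher in PTIP -/- in number 2 on measured signals, Gbp2 included, and in 5 of the 19 other tested members with a window: Ifi203, Ifit3, Irgm1, Rsad2 and Stat2. The core of the gamma-activated site, TTCNNNGAA, stood in 7 of the 34 (20.6%), against 8.13% of all genes with a window. Its matches were in Bst2, Eif2ak2, Ifit2, Igtp, Irf1, Isg20 and Oas1a. Each motif was searched on both strands without regard to the other, so bases can count for both. These matches describe the sequence and do not show that a factor binds there.

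Paxip1 itself read 43.5 and 74.6 in PTIP -/- cells, against 1029.5 and 1040.1 in PTIP +/+ cells, so the PTIP -/- arrays were low and the PTIP +/+ arrays high, as labelled. All 8 fibroblast markers passed the level, with Col1a1 between 20897.1 and 33210.9 on the 4 arrays. Thy1, a fibroblast surface protein, and Pdgfra, a growth factor receptor, differed more between the replicate numbers than between the genotypes. With replicate 1 before replicate 2, here and below, Thy1 read 14822.9 and 1500.7 in PTIP -/-, against 16080.1 and 239.2 in PTIP +/+. Pdgfra read 3563.4 and 174.2 in PTIP -/-, against 5010.1 and 583.2 in PTIP +/+. The arrays of PTIP -/- had median signals of 97.8 and 82.5 and those of PTIP +/+ 83.2 and 75.8.

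The interferon-stimulated genes were mostly higher in PTIP -/- within the arrays numbered 2 and evenly split within those numbered 1. In number 2, where the single PTIP -/- array is set against the single PTIP +/+ array, 28 of the 34 tested members were higher (82.4%), against 54.4% of all genes tested. In number 1, 15 of 34 were higher (44.1%), against 53.7% of all genes tested. The median log2 difference of the members was -0.03 in number 1 and 0.74 in number 2, and that of all genes tested 0.03 and 0.05. On measured signals, members at least 2-fold higher numbered 0 in number 1, where 3.7% of all genes were, and 12 in number 2 (35.3%), where 7.03% of all genes were. The 12 include Oas1a, which passed the level only through PTIP -/- replicate 2. They also include Cxcl10, whose PTIP +/+ mean lay below the level, so that it passed only through the PTIP -/- arrays. Members at least 2-fold lower numbered 1 in number 1 (Ifitm3, background 2.53%) and 1 in number 2 (Rsad2, background 4.86%, with both arrays below the level). With signals below the level raised to it, 0 members were at least 2-fold lower in number 2, against 4.28% of all genes. One array against another carries no test, and neither does the contrast of number 2 with number 1.

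**Figure D1:**
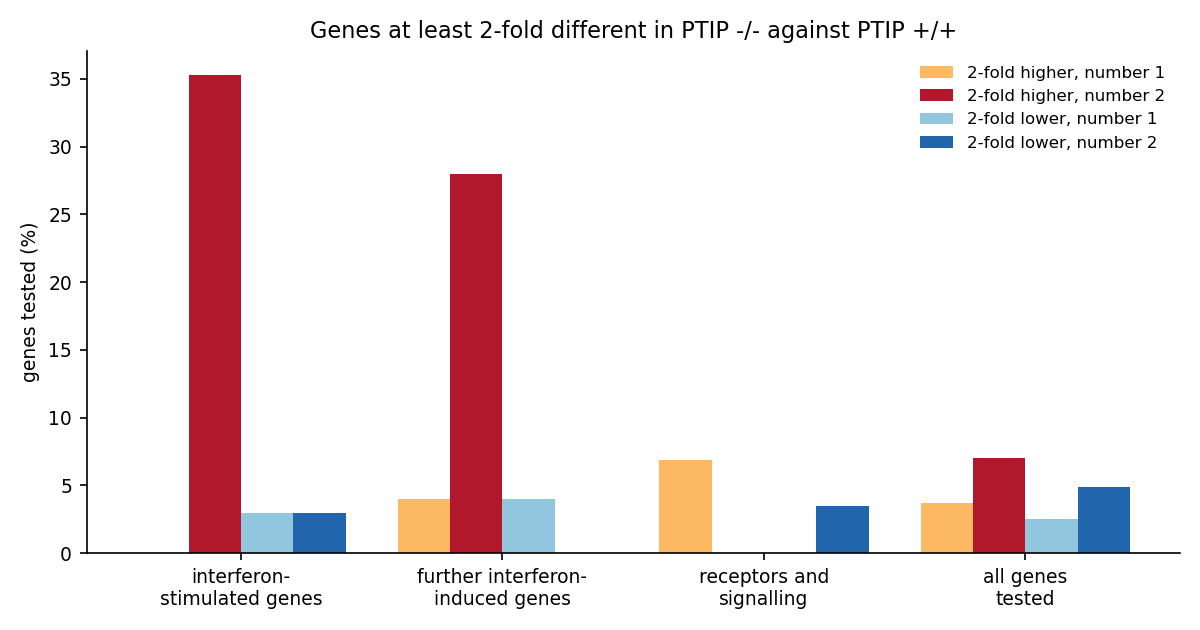
Share of tested genes (%, vertical axis) at least 2-fold higher or lower in PTIP -/- than in PTIP +/+ within replicate number 1 and within replicate number 2, for the 34 interferon-stimulated genes, 25 further interferon-induced genes, 29 genes of interferon receptors and signalling, and all 12509 genes tested. The bars for genes higher in number 2 reach 35.3% and 28% in the first 2 lists, 0 among receptors and signalling and 7.03% over all genes. The lists were chosen with earlier results of these data known.

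Over all 4 arrays 25 of the 34 were higher on the mean (73.5%), against 56.1% of all genes tested, around a median log2 change of 0.48, against 0.05 for all genes tested. Of the 25, Oas1a, Cxcl10 and Ifitm1 had PTIP +/+ means below the level and passed the filter only through PTIP -/-. No member passed in the fit over all genes. With limma, the adjusted p of each of the 34 members was 0.999. Thus 0 members passed 0.05 in either direction, as did 0% of all genes. Paxip1 itself, 18.2-fold lower on the mean, also had an adjusted p of 0.999 with limma, so the fit did not pass even the deleted gene. At an unadjusted p under 0.05 there were again 0 members in either direction, where 1.34% of all genes were higher and 0.943% lower. Those 168 higher and 118 lower genes became 114 and 145 with quantile normalization and 76 and 204 with centred arrays. With 2 arrays against 2, the smallest two-sided p of an exact permutation test is 0.333. The median rested on 1 array: it was -0.09 without PTIP -/- replicate 2, against 0.06 for all genes tested. Without PTIP -/- replicate 1 it was 0.64, against 0.03 for all genes tested. Centring the arrays on their medians moved the median of all genes to -0.13 and that of the members to 0.30.

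**Figure D2:**
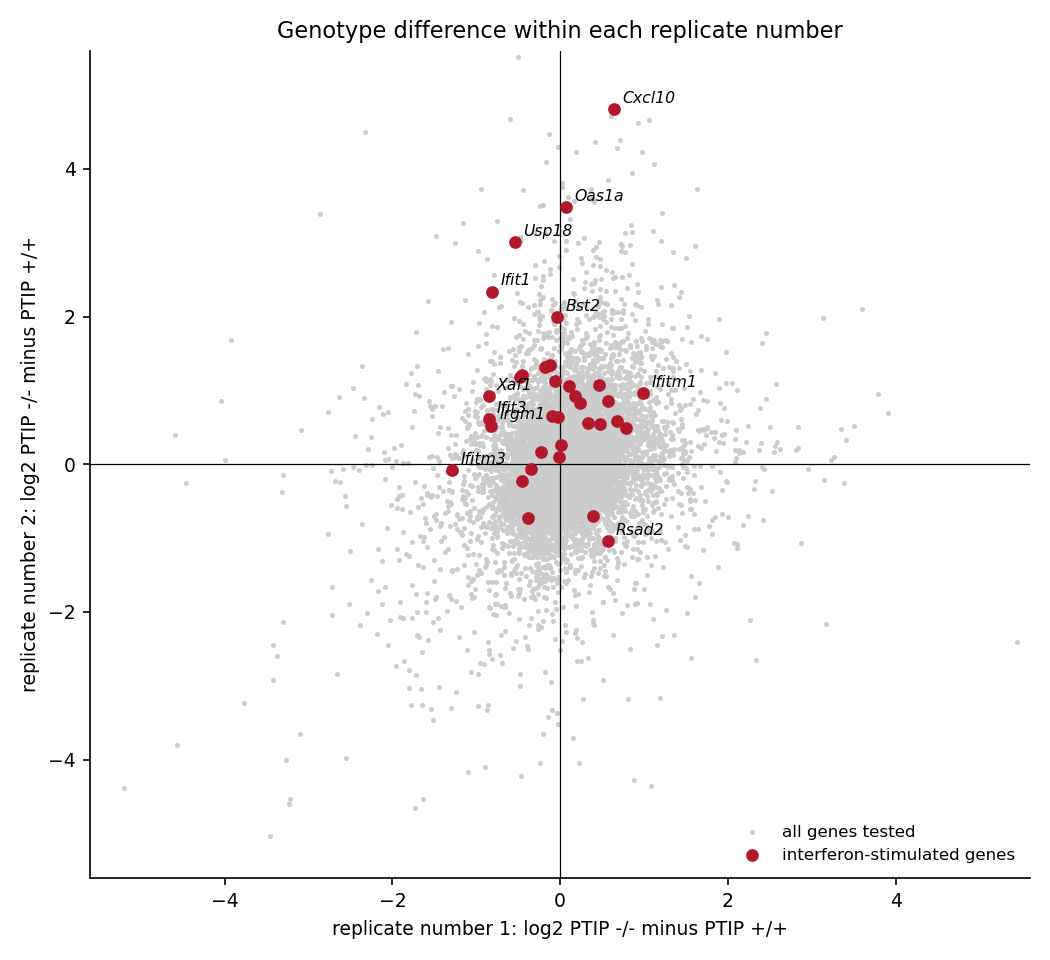
Log2 difference of PTIP -/- minus PTIP +/+ within replicate number 1 (horizontal) and number 2 (vertical), with the 34 interferon-stimulated genes in red and all 12509 genes tested in grey, 3 of which lie outside the axes. The red points lie between -1.04 (Rsad2) and 4.81 (Cxcl10) in number 2 and between -1.28 (Ifitm3) and 0.99 (Ifitm1) in number 1.

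Across the 34 members, which share the same 4 arrays, the differences in number 1 and number 2 had a Pearson's r of 0.05 and a Spearman's rho of -0.02, and across all 12509 genes 0.24 and 0.25. In 15 members the sign was lower in number 1 and higher in number 2 (44.1%), against 20.4% of all genes tested, and in 2, Irf1 and Rsad2, the reverse (5.88%), against 19.8%. The array of PTIP -/- replicate 2 was the highest of the 4 for 17 members (50.0%), against 25.8% of all genes tested. It was at least 2-fold above each of the other 3 arrays for 7 members (20.6%), against 1.42%: Usp18, Dtx3l, Parp14, Ifih1, Oas1a, Bst2 and Igtp. At 1.5-fold above the other 3 arrays the count was 13 (38.2%), against 4.24%. Oas1a is in each of these counts, where the level filter fixed its place, since it passed only through this array. Cxcl10, which passed only through the PTIP -/- arrays, is among the 17. In bulk RNA, more cells with a transcript and more transcript per cell cannot be told apart.

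**Figure D3:**
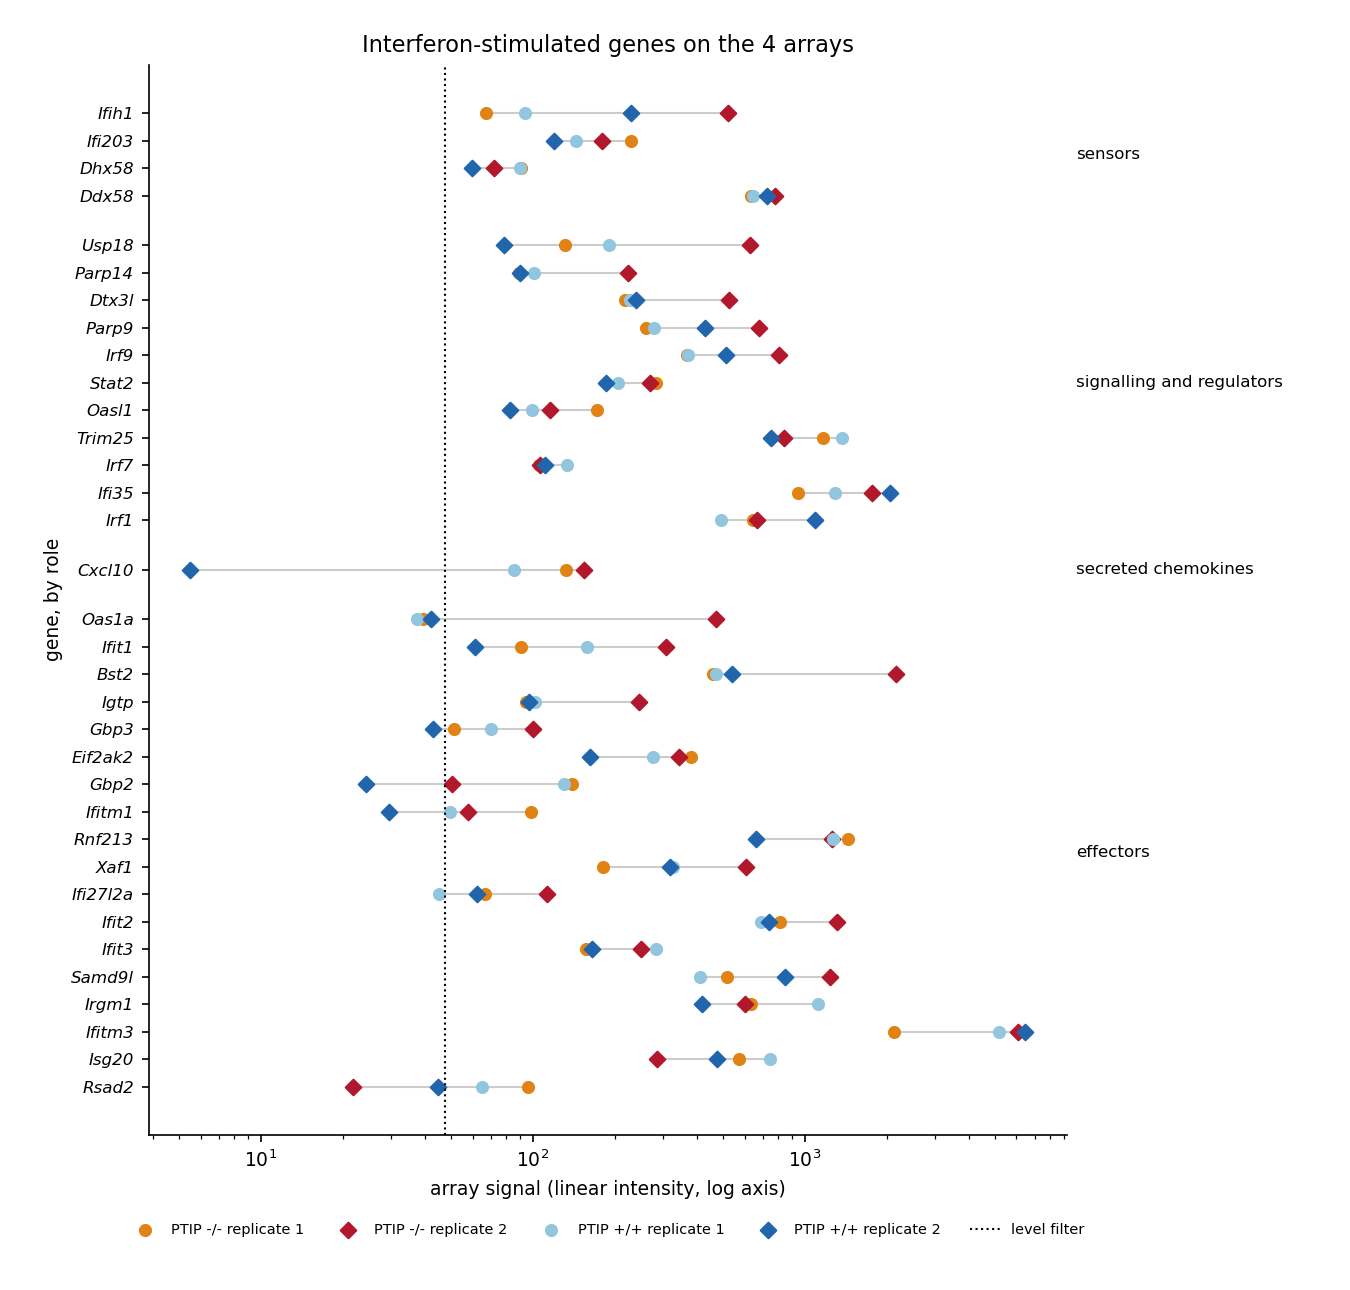
Signal of each of the 34 tested interferon-stimulated genes on the 4 arrays (linear intensity on a log axis), with 1 point per array, genes grouped by role and sorted within a role by their difference in number 2; the dotted line is the level filter at 47.7. Probe sets differ in brightness, so points are to be compared along a row only, and the red diamonds of PTIP -/- replicate 2 stand apart on the right for Ifih1, Usp18, Parp14, Dtx3l, Oas1a, Bst2 and Igtp.

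Among the sensors, Ifih1, which encodes the long double-stranded RNA sensor MDA5, stood apart on 1 array. It read 67.3 and 523.1 in PTIP -/-, against 93.4 and 230.4 in PTIP +/+. Both arrays numbered 2 were above both numbered 1, and in number 1 PTIP -/- was 1.39-fold lower, in number 2 2.27-fold higher (log2 0.36 ± 1.14, SE). Without PTIP -/- replicate 2 the log2 change was -1.12. Ddx58, which encodes RIG-I, the sensor of short RNA with a free triphosphate end, read 635.4 and 779.5 in PTIP -/-, against 643.6 and 725.1 in PTIP +/+. Its groups overlapped and its log2 change was 0.04 ± 0.27 (SE), which turned to -0.13 with centred arrays. Its dimmer probe sets gave 0.58 and -0.43, so the size and sign depended on the probe set.

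Dhx58 encodes LGP2, a RIG-I-like helicase that tunes both sensors. It read 90.7 and 71.7 in PTIP -/-, against 89.9 and 59.9 in PTIP +/+, with a log2 change of 0.14 ± 0.34 (SE) that was -0.05 with quantile normalization and -0.04 with centred arrays. Ifi203, of the p200 family whose members include sensors of DNA, read 229.1 and 179.5 in PTIP -/-, against 143.5 and 119.4 in PTIP +/+. Its groups did not overlap, and it was higher by 1.60-fold in number 1 and 1.5-fold in number 2 (log2 0.63 ± 0.28, SE). Genes of that family are close copies of each other, so its probe set may pick up relatives. Zbp1, a sensor of Z-form nucleic acid, and Ifi204, a p200 DNA sensor, did not reach the level.

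Of the 11 signalling genes and regulators, all tested, 7 were higher on the mean (63.6%, near the 56.1% of all genes tested) and 4 lower. Usp18, the protease that removes ISG15 from proteins and damps the type I receptor, differed most. It read 131.0 and 630.1 in PTIP -/-, against 190.2 and 78.3 in PTIP +/+. PTIP -/- replicate 2 was 3.31-fold above the next array, while in number 1 PTIP -/- was 1.45-fold below PTIP +/+ and in number 2 8.05-fold above it. The mean log2 signal was 8.17 ± 1.60 in PTIP -/- and 6.93 ± 0.91 in PTIP +/+ (SD, n = 2 each), a log2 change of 1.24 ± 0.93 (SE). Without PTIP -/- replicate 2 it was 0.10, and without PTIP +/+ replicate 2 it was 0.60. The arrays of each genotype lay at least as far apart as the genotype means.

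Parp9 and Dtx3l, which form a complex of an ADP-ribosyltransferase and a ubiquitin ligase, and Parp14, another ADP-ribosyltransferase, had the same highest array. Dtx3l read 219.1 and 526.5 in PTIP -/-, against 228.2 and 240.4 in PTIP +/+, with a log2 change of 0.54 ± 0.50 (SE) and -0.10 without PTIP -/- replicate 2. Parp14 read 89.1 and 223.9 in PTIP -/-, against 101.1 and 90.0 in PTIP +/+, with a log2 change of 0.57 ± 0.52 (SE) and -0.10 without that array. For both genes 3 arrays lay close together and PTIP -/- replicate 2 lay at least 2.19-fold above them. A dimmer probe set of Dtx3l did not show this, at 182.9 and 181.8 in PTIP -/-, against 111.9 and 198.1 in PTIP +/+. Parp9 read 261.0 and 676.0 in PTIP -/-, against 279.1 and 431.0 in PTIP +/+, and both arrays numbered 2 were above both numbered 1.

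The factors that carry the signal to the nucleus were less uneven. Stat2 read 284.6 and 269.2 in PTIP -/-, against 205.3 and 185.2 in PTIP +/+, without overlap, and was 1.39-fold and 1.45-fold higher in numbers 1 and 2 (log2 0.51 ± 0.25, SE, and 0.57 on a second probe set). Irf9, its partner in the complex, read 368.4 and 801.4 in PTIP -/-, against 373.3 and 513.7 in PTIP +/+, and was 1.56-fold higher in number 2 and level in number 1. The groups of Irf9 overlapped, those of Stat2 did not. Across members, 8 had groups that did not overlap with PTIP -/- higher (23.5%), against 16.6% of all genes tested. In 1, Irf7, they did not overlap with PTIP -/- lower (2.94%), against 12.1%. The 8 include Cxcl10 and Ifitm1, whose PTIP +/+ means lay below the level, so that they passed the filter only through PTIP -/-.

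Irf7, the factor that drives interferon gene transcription in the amplifying loop, read 105.4 and 106.2 in PTIP -/-, against 134.0 and 110.9 in PTIP +/+ (log2 -0.20 ± 0.26, SE). Irf1, which is induced by interferon gamma in particular, read 642.1 and 669.1 in PTIP -/-, against 490.7 and 1087.8 in PTIP +/+. The PTIP -/- arrays of Irf1 lay between the PTIP +/+ arrays, so its sign differed between the numbers. Oasl1, which in mice restrains Irf7 translation, read 172.1 and 115.3 in PTIP -/-, against 99.7 and 82.2 in PTIP +/+, without overlap (log2 0.64 ± 0.33, SE). Trim25, the ubiquitin ligase that acts on RIG-I, differed by -0.03 ± 0.42 (SE) and Ifi35 by -0.34 ± 0.46 (SE), both with overlapping groups. The brightest probe sets of Trim25 and Ifi35 are of the kind that the array's naming marks as shared between transcripts, and others of theirs gave -0.09 and -0.07 for Trim25 and -0.09 and -0.16 for Ifi35.

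The secreted chemokine Cxcl10 draws T cells through the receptor CXCR3. It read 132.4 and 153.9 in PTIP -/-, against 85.1 and 5.5 in PTIP +/+. The groups did not overlap, and 1 array, PTIP +/+ replicate 2, lay far below the level. Cxcl10 was 1.56-fold higher in number 1 and at least 3.23-fold higher in number 2, where the dimmer array is raised to the level. The fitted log2 change of 2.72 ± 1.39 (SE) used the measured signals, including that array. It was 0.75 without PTIP +/+ replicate 2 and 1.16 with signals raised to the level. Cxcl9, another CXCR3 ligand, lay below the level on all 4 arrays.

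Of the 25 effectors, 23 were measured and 18 tested, 13 of them higher on the mean (72.2%, against 56.1% of all genes tested) and 5 lower. Oas1a makes the second messenger that activates RNase L. It read 39.3 and 470.7 in PTIP -/-, against 37.5 and 42.1 in PTIP +/+, so that 3 arrays lay below the level and PTIP -/- replicate 2 was at least 9.87-fold above them. The filter on the mean kept Oas1a only through that array. Its log2 change was 1.78 ± 1.26 (SE), and -0.02 without PTIP -/- replicate 2. Of its relatives, Oas2, Oas3 and Oasl2 did not reach the level on their mean. Oasl2, a ubiquitin-like relative of the synthetases, read 20.1 and 97.7 in PTIP -/-, against 66.0 and 25.9 in PTIP +/+. Oas2, another synthetase, read 24.7 and 30.6 in PTIP -/-, against 84.7 and 52.7 in PTIP +/+, without overlap and lower by at least 1.78-fold in number 1 and at least 1.11-fold in number 2. Oas3, the third synthetase, read 31.8 and 36.0 in PTIP -/-, against 52.6 and 21.7 in PTIP +/+, with overlapping groups.

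Bst2, the tetherin that holds budding virus to the cell surface, read 458.5 and 2161.1 in PTIP -/-, against 470.6 and 541.3 in PTIP +/+. As with Oas1a, 3 arrays lay together and PTIP -/- replicate 2 stood 3.99-fold above the next. Bst2 had a log2 change of 0.98 ± 0.81 (SE), and of -0.14 without that array. Igtp, an immunity-related GTPase that acts on vacuoles of intracellular parasites, read 94.1 and 245.4 in PTIP -/-, against 102.2 and 96.6 in PTIP +/+, 2.54-fold higher in number 2 and 1.09-fold lower in number 1, and its log2 change of 0.61 ± 0.54 (SE) was -0.08 without PTIP -/- replicate 2. Irgm1, a regulator of those GTPases, did not follow it, at 634.4 and 601.1 in PTIP -/-, against 1120.9 and 417.9 in PTIP +/+, where both PTIP -/- arrays lay between the PTIP +/+ arrays.

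The IFIT proteins, which bind viral RNA and translation factors, varied among themselves. Ifit1 read 90.6 and 309.8 in PTIP -/-, against 158.5 and 61.2 in PTIP +/+, which made PTIP -/- 1.75-fold lower within number 1 and 5.06-fold higher within number 2. Its log2 change of 0.77 ± 0.81 (SE) was -0.12 without PTIP -/- replicate 2 and 0.08 without PTIP +/+ replicate 2. Ifit2 read 808.4 and 1313.8 in PTIP -/-, against 688.5 and 736.8 in PTIP +/+, without overlap (log2 0.53 ± 0.34, SE). Ifit3 read 157.3 and 250.6 in PTIP -/-, against 284.2 and 164.5 in PTIP +/+, with opposite signs in the numbers. PTIP -/- replicate 2 was the highest array for Ifit1 and Ifit2 and second to PTIP +/+ replicate 1 for Ifit3. Ifit3 has a close copy, Ifit3b, which its probe set may also read.

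For 3 further effectors counted as 2-fold higher in number 2, PTIP +/+ replicate 2 was the lowest of the 4 arrays. Eif2ak2, the kinase PKR that stops translation on double-stranded RNA, read 380.9 and 343.3 in PTIP -/-, against 276.5 and 162.5 in PTIP +/+, without overlap (log2 0.77 ± 0.36, SE). Its other probe sets gave log2 changes of 0.64 and 0.47. The first of these did not overlap but was under 2-fold higher in number 2 (log2 0.75). The second had overlapping groups, at log2 -0.08 in number 1 and 1.02 in number 2. Gbp2, a guanylate-binding GTPase, read 139.3 and 50.5 in PTIP -/-, against 129.8 and 24.3 in PTIP +/+, at least 1.06-fold higher in number 2. A dimmer probe set of Gbp2 read 114.0 and 35.2 in PTIP -/-, against 52.5 and 32.9 in PTIP +/+. There the difference lay in number 1 (log2 1.12), and both arrays numbered 2 were below the level. Gbp3, of the same family, read 51.3 and 99.9 in PTIP -/-, against 70.1 and 43.1 in PTIP +/+, at least 2.10-fold higher in number 2. With signals below the level raised to it, 11 of 34 members were at least 2-fold higher in number 2 (32.4%), against 5.75% of all genes tested. Gbp2 was the one left out, and Oas1a and Cxcl10 were still counted.

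The membrane proteins that stop virus entry differed in sign on the mean. Ifitm3 read 2120.1 and 6091.9 in PTIP -/-, against 5162.6 and 6435.4 in PTIP +/+, and PTIP -/- replicate 1 lay 2.44-fold below its PTIP +/+ partner while the arrays numbered 2 were 1.06-fold apart. Ifitm1 read 98.2 and 57.7 in PTIP -/-, against 49.4 and 29.6 in PTIP +/+, without overlap, 1.99-fold higher in number 1 and at least 1.21-fold higher in number 2. Ifitm1 had the smallest unadjusted p of all members, 0.0875 with limma (log2 0.98 ± 0.44, SE). It was 1 of 3 members at least 1.5-fold higher within both numbers on the measured signals, with Cxcl10 and Ifi203. The 3 were 8.82% of the tested members, against 3.43% of all genes tested. Ifitm1 and Cxcl10 had PTIP +/+ means below the level, so they passed the filter only through PTIP -/-. With signals below the level raised to it the count was 2, without Ifitm1, and the share of all genes was not counted. In the other direction 0 of 34 were at least 1.5-fold lower within both, against 2.21%.

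On their brightest probe sets, the other tested effectors differed by 2-fold or less within each number, apart from Rsad2. Xaf1, a pro-apoptotic factor, read 181.6 and 607.7 in PTIP -/-, against 328.1 and 320.3 in PTIP +/+, so that the PTIP -/- arrays lay on either side of the PTIP +/+ arrays. A dimmer probe set of Xaf1 read 74.1 and 59.3 in PTIP -/-, against 64.9 and 22.7 in PTIP +/+, highest on PTIP -/- replicate 1. Ifi27l2a, a small hydrophobic protein, read 66.9 and 113.2 in PTIP -/-, against 45.1 and 62.5 in PTIP +/+, without overlap. PTIP +/+ replicate 1 lay below the level, so Ifi27l2a was at least 1.40-fold higher in number 1. Samd9l, an inhibitor of translation, read 519.3 and 1236.7 in PTIP -/-, against 411.4 and 842.1 in PTIP +/+, and followed the replicate number more than the genotype. Rnf213, a giant ubiquitin ligase, read 1439.4 and 1258.2 in PTIP -/-, against 1272.5 and 660.0 in PTIP +/+, with a low PTIP +/+ replicate 2. A dimmer probe set of Rnf213 read 81.1 and 102.6 in PTIP -/-, against 106.0 and 66.6 in PTIP +/+, with opposite signs in the numbers. Isg20, an RNA exonuclease, read 572.2 and 285.4 in PTIP -/-, against 746.2 and 474.1 in PTIP +/+, lower within both numbers with overlapping groups (log2 -0.56 ± 0.48, SE).

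Rsad2, which encodes the antiviral enzyme viperin, read 96.1 and 21.8 in PTIP -/-, against 64.9 and 44.8 in PTIP +/+. Both arrays numbered 2 lay below the level, so no fold is given there, and its 3 probe sets did not agree in sign (log2 -0.24, 1.15 and -1.60). In all, 8 measured members did not reach the level: Zbp1, Ifi204, Cxcl9, Mx1, Mx2, Oas2, Oas3 and Oasl2, with signals between 0.4 and 97.7. Cxcl9 and Mx2 were below the level on all 4 arrays. Mx1 and Mx2 encode dynamin-like GTPases that trap viral particles, and RefSeq lists Mx1 of the reference mouse as a transcribed pseudogene.

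In the list of interferon ligands, receptors and signalling genes, not all of which act upstream of the members, 0 of 29 tested were at least 2-fold higher in number 2. Among all genes tested 7.03% were. Of 35 genes of interferon ligands, receptors and signalling, 32 were measured and 29 tested, 16 of them higher on the mean (55.2%, near the 56.1% of all genes tested) around a median log2 change of 0.12, with medians of 0.01 in number 1 and 0.15 in number 2. The median of 0.12 turned to -0.0059 with quantile normalization and to -0.062 with centred arrays. None passed the fit over all genes, and in number 1 both Ikbke and Tlr3 were at least 2-fold higher (6.9%, against 3.7%). Jak1, a kinase of both receptor types, was the 1 gene at least 2-fold lower in number 2 (3.45%, against 4.86%), at 2836.8 and 3034.4 in PTIP -/-, against 3265.7 and 6630.0 in PTIP +/+, without overlap. Ikbke and Jak1 were named after their values were seen. Tlr3, the endosomal receptor for double-stranded RNA, was the 1 gene of the list at least 1.5-fold higher within both numbers (3.45%, near the 3.43% of all genes tested), at 96.2 and 121.8 in PTIP -/-, against 6.4 and 75.5 in PTIP +/+. Ptpn11, the phosphatase SHP2, read 5492.0 and 6101.0 in PTIP -/-, against 5954.1 and 6302.5 in PTIP +/+, close together on all arrays.

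The type I receptor chains, chosen after their values were seen, overlapped between the genotypes. Ifnar1 read 581.5 and 1134.5 in PTIP -/-, against 700.8 and 960.9 in PTIP +/+, and Ifnar2 766.1 and 1207.1 in PTIP -/-, against 764.2 and 1255.4 in PTIP +/+. Both were higher in the arrays numbered 2 of either genotype. Beta interferon, Ifnb1, also chosen after its values were seen, lay near the level at 59.8 and 59.4 in PTIP -/-, against 53.0 and 19.2 in PTIP +/+, and did not pass the filter.

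Other genes known to be induced by interferon were mostly higher on the mean. They were listed with earlier results of these data known and read on the same 4 arrays, so they are no independent check of the members. Of 47 listed, 38 were measured and 25 tested, and 22 of the 25 were higher on the mean (88%, against 56.1% of all genes tested), around a median log2 change of 0.35, with 0.16 in number 1 and 0.42 in number 2. Without PTIP -/- replicate 2 the median was 0.08, and without PTIP +/+ replicate 1 it was 0.11. In number 2, 7 of 25 were at least 2-fold higher (28%, against 7.03% of all genes tested) and 0 lower (against 4.86%). In number 1, 1 was at least 2-fold higher and 1 lower (4% each), near the 3.7% and 2.53% of all genes. None passed the fit over all genes. Tapbp, the tapasin that loads peptides onto MHC class I, was the 1 gene of the list at least 1.5-fold higher within both numbers (4%, near the 3.43% of all genes tested). It read 1371.1 and 4265.9 in PTIP -/-, against 802.2 and 1454.3 in PTIP +/+ (log2 1.16 ± 0.68, SE). Ifitm2, a relative of the entry inhibitors above, read 6692.6 and 7199.0 in PTIP -/-, against 7415.3 and 7819.3 in PTIP +/+.

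Chosen after their values were seen, Trim30a, Lgals3bp and Rtp4 were, like Bst2, highest on PTIP -/- replicate 2, at least 2.01-fold above the other 3. Trim30a read 84.0 and 254.4 in PTIP -/-, against 75.8 and 44.8 in PTIP +/+. Lgals3bp read 583.2 and 3367.8 in PTIP -/-, against 636.5 and 1366.7 in PTIP +/+. Rtp4 read 177.1 and 705.4 in PTIP -/-, against 350.5 and 290.1 in PTIP +/+. Rtp4 was lower in PTIP -/- within number 1, and Trim30a alone of the 3 had groups that did not overlap.

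Markers of cells that could carry interferon-stimulated transcripts of their own were also read. The summed signal of 8 leukocyte and macrophage markers was 848.0 and 738.2 in PTIP -/-, against 750.4 and 565.0 in PTIP +/+, with 5 of the 8 above the level and none at 0. Ptprc, the pan-leukocyte surface protein, read 34.8 and 51.5 in PTIP -/-, against 51.8 and 11.4 in PTIP +/+. Fcer1g, an Fc receptor chain of myeloid cells, read 142.2 and 50.7 in PTIP -/-, against 40 and 10.3 in PTIP +/+, without overlap and at least 2.98-fold higher in number 1 and at least 1.06-fold in number 2. For 4 endothelial markers the sums were 300.1 and 202.2 in PTIP -/-, against 169.0 and 259.9 in PTIP +/+, and for 4 epithelial markers 705.1 and 459.9 in PTIP -/-, against 493.3 and 381.7 in PTIP +/+. The leukocyte sum of PTIP -/- replicate 2 was below both arrays numbered 1 and above PTIP +/+ replicate 2. Itgam, Pecam1 and Cdh1, markers of macrophages, endothelium and epithelium, were below the level on all 4 arrays. Csf1r, Kdr and Epcam, from the same lists, were above it on all 4. Csf1r read 278.2 and 226.0 in PTIP -/-, against 277.0 and 218.1 in PTIP +/+. Kdr read 172.0 and 124.1 in PTIP -/-, against 107.0 and 126.5 in PTIP +/+. Epcam read 436.1 and 291.5 in PTIP -/-, against 356.0 and 220.4 in PTIP +/+. Of the endothelial markers 2 of 4 passed the level, and of the epithelial markers 2 of 4. Krt18, a keratin of simple epithelium, read 85.6 and 57.4 in PTIP -/-, against 17.0 and 20.6 in PTIP +/+, without overlap and at least 1.80-fold higher in number 1 and at least 1.20-fold in number 2. For both Fcer1g and Krt18 the highest array was PTIP -/- replicate 1. Cd14, from the leukocyte and macrophage list, was highest on PTIP -/- replicate 2. It read 108.9 and 145.2 in PTIP -/-, against 134.7 and 76.9 in PTIP +/+, with overlapping groups and 1.89-fold higher in number 2. The part of these cells in the values of PTIP -/- replicate 2 was not tested.

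**Figure D4:**
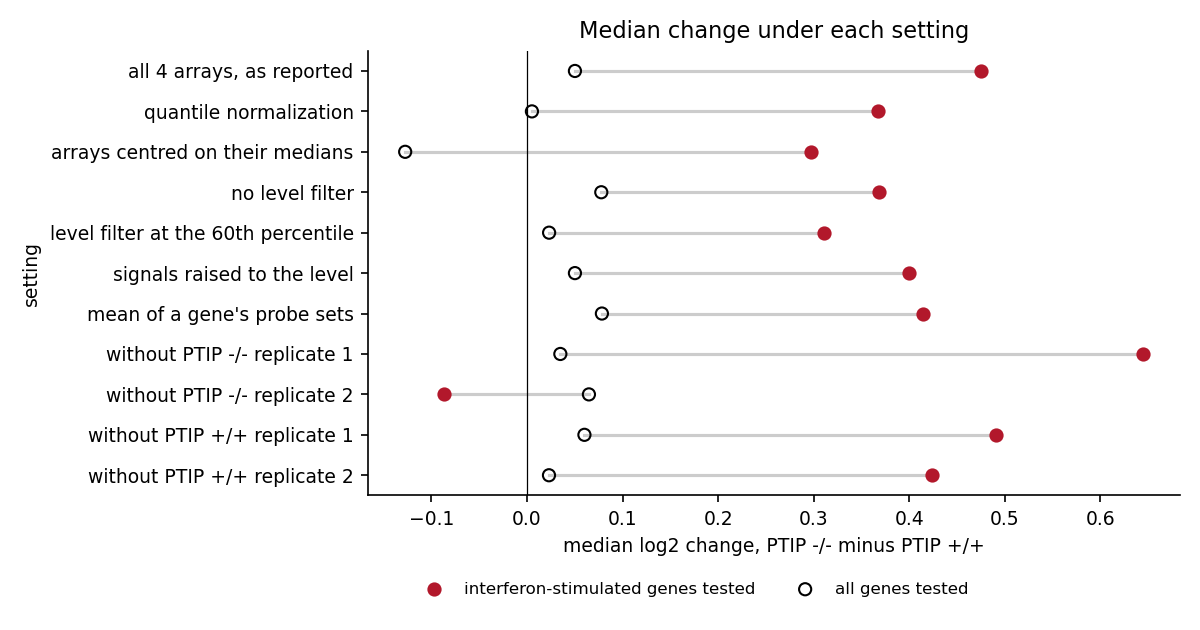
Median log2 change of PTIP -/- minus PTIP +/+ (horizontal axis) for the interferon-stimulated genes tested (filled) and for all genes tested (open) with all 4 arrays and under each alternative setting (rows). The filled points lie between 0.30 and 0.64 except without PTIP -/- replicate 2, where the median is -0.09.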

How the data were processed

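Total RNA of 4 fibroblast samples was labelled with biotin and hybridised to Affymetrix arrays, per the labels' protocols. The authors deposited linear intensities for 45101 probe sets. The submitters' processing notes name RMA, but the deposited intensities are linear, include a 0 and have a common trimmed mean with unequal medians, so how they were corrected and summarised is unknown here. Scaling of that kind can shift dim genes between arrays.

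Here the 64 control probe sets were left out, the 0 was set to 0.1 and intensities were taken to log2. A single gene symbol belonged to 34945 probe sets, several to 932 and none to 9160. Symbols were updated through RefSeq of GRCm38.p6 (34741 matched), which gives the promoter sequences too. The files name no build for probe sets. PTIP -/- and PTIP +/+ were compared with limma 3.58.1 (lmFit, then eBayes; R 4.3.3) on the 4 arrays without covariates, which leaves 2 residual degrees of freedom, with Benjamini-Hochberg adjustment over 12509 genes. The model was run on simulated data with the same small noise for every gene. That noise is smaller than the spread of many genes here, so the run does not show its power on these arrays. A fold is "at least" where the dimmer array of a comparison lay below 47.7, since no detection calls are used here.

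Members and lists were chosen with earlier results of these data known. Every tested member is given; of the other lists, the brightest gene and those at least 1.5-fold different within both numbers, unless said otherwise. Alternatives were quantile normalization, median centring, other filters, raised signals, the mean of probe sets, a variance trend, the replicate block and each array left out.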

Additional observations from a re-analysis of the deposited data

How the results depend on the processing

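Over 12 alternatives, 0 genes and 0 members passed at an adjusted p under 0.05 with limma, and the lowest adjusted p of any member was 0.601. The replicate numbers are shared between the genotypes, but no source says that they pair the samples. Deviations of same-numbered arrays correlated at 0.686 across genes, and with the number as a block 0 members passed, with 5 higher and 0 lower at an unadjusted p under 0.05, where 612 of 12509 genes were higher and 370 lower. Of the 34 members, 12 kept the sign of their log2 change under every alternative that tested them and 22 did not. Without PTIP -/- replicate 2, 15 of the 22 turned. How many of all genes turned was not counted, so these counts show nothing particular to the members. Leaving out each array in turn gave medians from -0.087 to 0.64 for the members, from 0.00045 to 0.10 for receptors and signalling and from 0.084 to 0.56 for the further induced genes. The median of receptors and signalling was -0.0059 with quantile normalization, -0.062 with centred arrays and -0.00038 with the filter at the 60th percentile. The count of members at least 1.5-fold higher within both numbers was 1 with each of these settings. The count at least 1.5-fold lower was 1 with centred arrays and 1 with no filter. The count at least 2-fold higher in number 2 was an alternative added after seeing the data. It was 5 with the 60th percentile filter, which tested 21 members, and 10 with quantile normalization or centred arrays. For these 1.5-fold and 2-fold counts the share of all genes under the same setting was not counted, so they have no background here. The causes were not tested. Signals near the level of 47.7 limit Oas1a, Cxcl10, Gbp2, Gbp3, Ifi27l2a, Ifitm1 and Rsad2.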
